A study of Mus musculus with 26 samples.

Results

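The genes described here are the mitochondrially encoded genes of the mouse, defined as the entries of a deposited count table whose symbol starts with mt-. They number 37 of the 56941 genes in the table, and comprise 13 mRNAs, 2 rRNAs and 22 tRNAs. All 37 identifiers matched the GENCODE M21 annotation of the GRCm38 genome. The symbols alone decided which genes are members, but these genes were chosen for description with earlier results of these data known.

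The mitochondrial genome is a small circular DNA, present in many copies per cell, that encodes core subunits of the respiratory chain together with the rRNAs and tRNAs needed to translate them. It is transcribed from both strands into long precursors, from which the tRNAs are cut out so that the mRNAs and rRNAs between them are released. All other proteins of mitochondria, including the polymerase, the RNA-processing enzymes and most respiratory subunits, come from nuclear genes. Motor neurons have long axons and depend strongly on mitochondrial ATP.

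RNA was sequenced from 26 cultures of motor neuron spheroids, made from HBG3 mouse embryonic stem cells that carry a GFP reporter driven by HB9 (Mnx1), which is a motor neuron transcription factor. All groups shared this 1 cell line (genotype field "heterozygous blastocysts"), expansion on feeder cells, differentiation with puromorphamine and retinoic acid, ciliary and glial derived neurotrophic factors from day 5, and seeding on fibrin at about day 8. The mechanical arm held spheroids on a magnetic silicone array that was moved every day, at 4 Hz and for 30 min (actuated array, n = 4) and on such an array that was not moved (static array, n = 4). The biochemical arm held groups labelled high intensity (n = 6), low intensity (n = 6) and biochemical control (n = 6). The design text describes medium taken from muscle with or without optical stimulation, but its sample names could not be matched to either intensity, so the groups keep the label of intensity. The labels do not say whether replicates were separate differentiations, and the p-values measure the spread between these samples only.

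Depth was uneven. In 5 libraries the nuclear protein-coding genes held under 1000000 counts (control replicate 4, high intensity replicates 4 and 5, low intensity replicate 6 and static array replicate 3), and low intensity replicate 6 had 1536 counts in all. The other 21, called the deeper libraries, had 1551334 to 3971348 counts in the biochemical arm and 7269276 to 13162635 in the mechanical arm, and the arms did not overlap. Nuclear rRNA genes also differed. They held 75.7% of the 1457250 counts of control replicate 4, 17.2% in low intensity replicate 6 and 6.25% in high intensity replicate 4. High intensity replicate 5 had 2.35% and static array replicate 3 had 0.704%, against 0.64% to 2.23% in the deeper libraries. Every motor neuron marker examined (Mnx1, Isl1, Isl2, Lhx3, Chat, Slc18a3 and Slc5a7) had counts in each of the 5 groups. Levels are given as counts per 1000000 counts on the nuclear protein-coding genes of the same library, written pcCPM, because rRNA depletion and the mitochondrial genes themselves change the total. In these bulk samples, fewer cells of a type and less RNA per cell cannot be told apart.

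The nuclear genome carries copies of mitochondrial DNA, and several mitochondrial genes differ from such a copy by only a few bases. A block of 7 such copies lies on the reverse strand at chr1:24611535-24616197 (GRCm38), spanning 4663 bases. The copies of mt-Co2, mt-Atp6, mt-Co3 and mt-Nd4l had 0 mismatches over their whole annotated length and ended 1 to 3 bases before the mitochondrial gene. The ends of these genes are shown because those bases, in capitals, were the only ones the annotated copy lacked; all lie on the forward strand of the mitochondrial genome, and the last 60 bases are given for mt-Co2 (chrM:7637-7696), mt-Atp6 (chrM:8548-8607), mt-Co3 (chrM:9331-9390) and mt-Nd4l (chrM:10114-10173), taken from GENCODE M21 transcripts.
mt-Co2: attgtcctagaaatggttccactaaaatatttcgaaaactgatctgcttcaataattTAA
mt-Atp6: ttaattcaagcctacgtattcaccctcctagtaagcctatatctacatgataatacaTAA
mt-Co3: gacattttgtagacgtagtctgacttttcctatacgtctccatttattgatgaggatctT
mt-Nd4l: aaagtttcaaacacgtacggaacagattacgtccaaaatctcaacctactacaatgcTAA

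The copy of mt-Nd3, Gm28438, also lacked the last 3 bases but carried 1 internal difference, T3C, counted from 1 at the first base of mt-Nd3. The first 60 bases of both are shown with that base in capitals, at chrM:9459-9518 on the forward strand and at chr1:24613060-24613119 on the reverse strand.
mt-Nd3: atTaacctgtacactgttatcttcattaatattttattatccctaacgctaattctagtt
Gm28438: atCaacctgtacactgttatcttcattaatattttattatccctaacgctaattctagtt

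The copy of mt-Co1, Gm29216, covered 492 bases and differed at 6 positions, which all lay within its first bases (T1056A, C1057T, A1059G, A1060G, C1062A and A1066T, counted from the start of mt-Co1). The 47 bases that hold them are shown with the differing bases in capitals, at chrM:6381-6427 on the forward strand and chr1:24616151-24616197 on the reverse strand.
mt-Co1: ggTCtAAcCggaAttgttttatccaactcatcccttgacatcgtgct
Gm29216: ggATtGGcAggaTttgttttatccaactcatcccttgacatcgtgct

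Counts were split between gene and copy in 2 different ways. Over all libraries, Gm10925 held 182934 counts and mt-Atp6 24505, Gm28661 held 71045 and mt-Co2 8934, Gm28437 held 53255 and mt-Co3 14327, and Gm10222 held 17883 and mt-Nd4l 4306. For these 4 pairs, which share all but the last bases, most counts thus stood on the nuclear copy. For mt-Nd3, with its 1 differing base, the copy held 126 counts and the gene 9048. For mt-Nd4, whose copy Gm28439 matched 876 of its 1378 bases without a mismatch, the copy held 37 counts and the gene 130878. The copy of mt-Co1 shown above held 285 counts against 460119. How the authors' counting divided such reads is not given in the sources used here, and whether any of these counts came from transcripts of the nuclear copies was not tested.

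The division changed from library to library. Among the deeper libraries, mt-Co3 held 0% to 75.2% of the counts of its pair, mt-Nd4l 0% to 70.2%, mt-Co2 0% to 37.6% and mt-Atp6 0% to 25.3%. mt-Nd3 held 76.7% to 100%. Counts of 0 on the mitochondrial gene occurred in 7 of the 21 deeper libraries for mt-Co2, in 6 for mt-Co3, in 5 for mt-Nd4l and in 2 for mt-Atp6, although each pair had counts in all of them. Adding the copy reduced the coefficient of variation across the 21 libraries from 125% to 19.1% for mt-Co3, from 122% to 33% for mt-Co2, from 115% to 47% for mt-Atp6 and from 115% to 37.6% for mt-Nd4l. For mt-Nd3 it moved from 24.9% to 23.8%. The values of mt-Co2, mt-Atp6, mt-Co3 and mt-Nd4l alone are therefore uncertain. Their fold changes in the group comparisons below are given with and without the copy. Those from other settings, in the closing sections, are mostly without it.

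**Figure D1:**
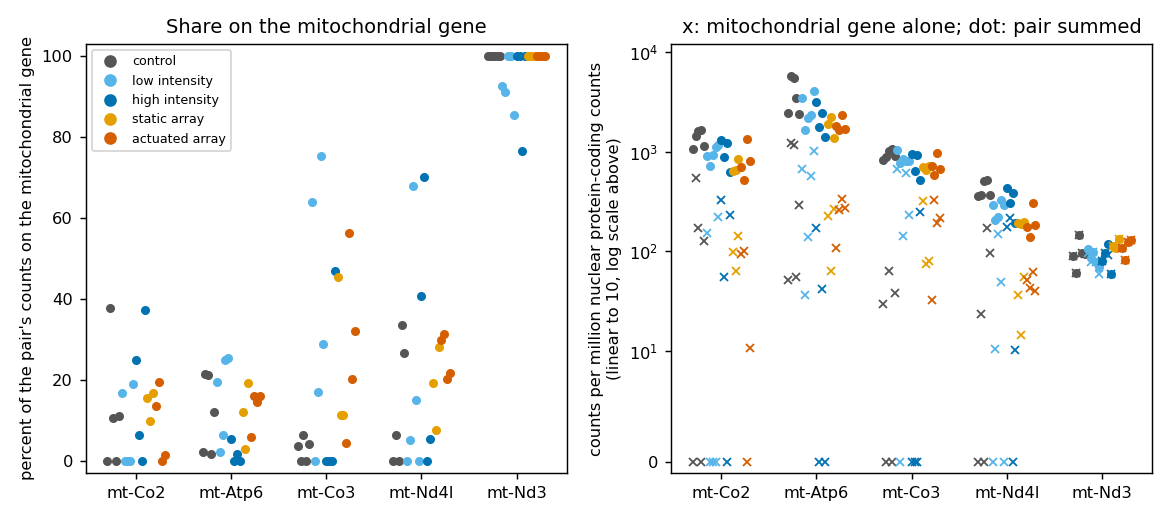
Left, percent of the counts of each gene and nuclear copy pair that stood on the mitochondrial gene, 1 point per deeper library (n = 21), coloured by group. Right, counts per 1000000 nuclear protein-coding counts of the mitochondrial gene alone (crosses) and of the pair summed (dots), on an axis that is linear to 10 and logarithmic above; the crosses of mt-Co2, mt-Atp6, mt-Co3 and mt-Nd4l reach 0 while the dots do not, and those of mt-Nd3 lie with its dots.

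Levels between genes were compared per length, on the deposited TPM scale (transcripts per 1000000, which divides by gene length). In the deeper libraries the rRNAs of the large and small mitochondrial ribosomal subunits led, with a median of 51654 TPM for mt-Rnr2 (30028 to 76782) and 41002 TPM for mt-Rnr1 (23704 to 60269). Their ranges overlapped, but within every deeper library mt-Rnr2 exceeded mt-Rnr1, by 1.09 to 1.38 times in TPM. These rRNA levels are what remained after the kit had cleaved fragments derived from rRNA. Together the 2 rRNAs took 5.9% to 14.7% of all counts of a deeper library, and the 13 mRNAs took 0.866% to 2.78%.

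Among the mRNAs, mt-Co1, the catalytic subunit of cytochrome c oxidase (complex IV), had a median of 3424 TPM. mt-Cytb, the cytochrome b of complex III, had 2002 TPM. Of the complex I subunits with no near-complete copy, mt-Nd5 had 1892 TPM, mt-Nd1 1377, mt-Nd4 1117, mt-Nd2 929 and mt-Nd6 700. The ranges of neighbours in this order overlapped, for example 1927 to 7204 TPM for mt-Co1 and 1198 to 3909 TPM for mt-Cytb. mt-Atp8, a subunit of the membrane part of ATP synthase (complex V), had 3591 TPM (1839 to 7518). This gene has only 204 bases, so that its value per length rests on a short sequence.

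The last bases of mt-Atp8 show a second limit, since 43 of them, in capitals, also begin mt-Atp6 (chrM:7890-7969, forward strand).
mt-Atp8: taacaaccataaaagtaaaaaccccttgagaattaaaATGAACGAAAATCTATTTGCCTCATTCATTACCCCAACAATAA

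With the copies added, mt-Atp6 had a median of 4220 TPM, mt-Nd4l 2342, mt-Co2 1669, mt-Co3 1186 and mt-Nd3 632. On their own, mt-Atp6 had 482 TPM, mt-Nd4l 385, mt-Co2 110 and mt-Co3 105, which placed the latter pair below every other mitochondrial mRNA. The place of these 4 genes in the order thus depended on whether the copy was counted. The position of mt-Nd3 did not move in the same way, with 604 TPM alone.

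**Figure D2:**
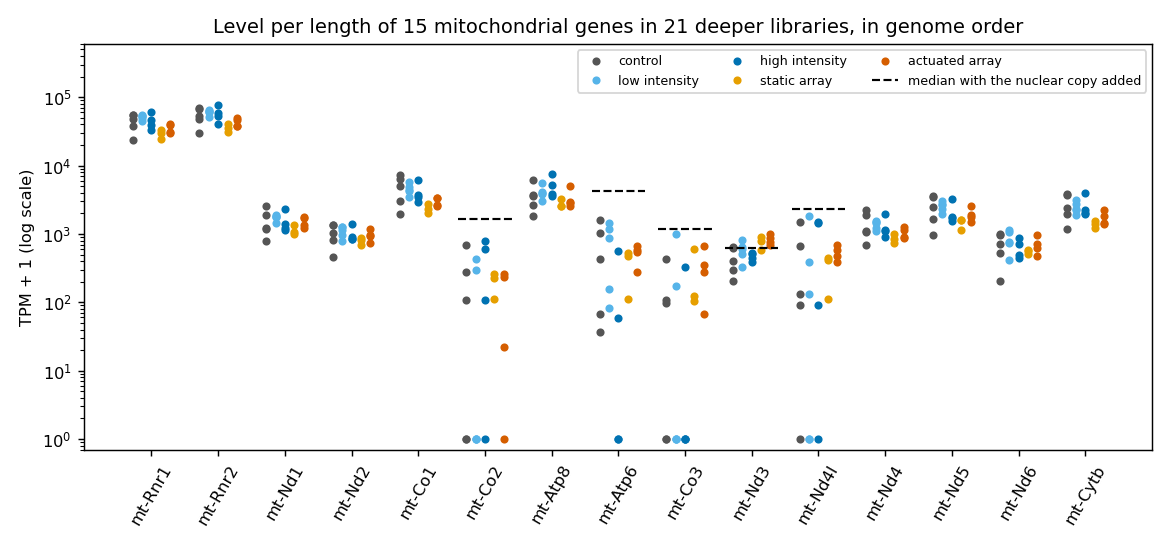
TPM + 1 (log axis) of the 2 rRNAs and 13 mRNAs in the 21 deeper libraries, 1 point per library, in their order along the mitochondrial genome and coloured by group. Dashed lines are the medians after the nuclear copy was added (for example 4220 for mt-Atp6, against 482 for the gene alone), and points at 1 are libraries in which the gene was listed at 0.

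The tRNAs were nearly absent from these libraries. All 22 together had 1214 counts over the 26 libraries, of which mt-Tg, the glycine tRNA between mt-Co3 and mt-Nd3, held 914 (75.3%). It was seen in 24 libraries, with the highest counts in static array replicate 2 (231) and low intensity replicate 1 (220). No other library had more than 66. The sequence of mt-Tg is shown because it alone among the tRNAs entered the tests (chrM:9391-9458, forward strand).
mt-Tg: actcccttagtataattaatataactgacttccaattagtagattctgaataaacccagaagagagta

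The next tRNAs were mt-Tv (64 counts in all libraries together), mt-Tm (59), mt-Tp (52), mt-Tw (51) and mt-Ts1 (32). A further 10 tRNAs had 1 to 10 counts, and mt-Tq, mt-Ty, mt-Td, mt-Tr, mt-Ts2 and mt-Tl2 had 0 in every library. In the deeper libraries a count of 0 allowed up to 0.268 to 2.38 pcCPM (3 counts). In those libraries the tRNA sum was 1.63 to 81.7 pcCPM.

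In the summed levels of rRNA and of mRNA, the controls had the highest group median of the deeper libraries and both array groups the lowest; the tRNA sums, which rest on few counts, did not follow this order. In the deeper controls the rRNA sum was 140419, 198861, 199959, 181908 and 150031 pcCPM. On the static array it was 78117, 75489 and 83133, with 109787 in the shallow replicate 3. On the actuated array it was 80137, 66400, 121649 and 81434. No array library reached the lowest of these controls, whereas the actuated and static arrays overlapped.

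The 2 intensity groups lay between. At high intensity the deeper libraries had an rRNA sum of 151863, 101103, 174777 and 88780 pcCPM. At low intensity they had 128318, 94266, 112945, 128921 and 140277. The low-intensity values lay below every deeper control, and the highest, 140277, was close to the lowest control, 140419. The shallow low intensity replicate 6 gave 12163 pcCPM from 14 rRNA counts.

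The mRNA sum followed a like order with more overlap. The deeper controls had 17210, 32282, 37681, 32018 and 19043 pcCPM. The static array had 11235, 10396 and 11983, with 27996 in the shallow replicate 3. The actuated array had 11581, 9742, 19331 and 12433, of which the third lay within the controls. High intensity ranged from 11381 to 23800 and low intensity from 11704 to 25565 in the deeper libraries, and both overlapped the controls.

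**Figure D3:**
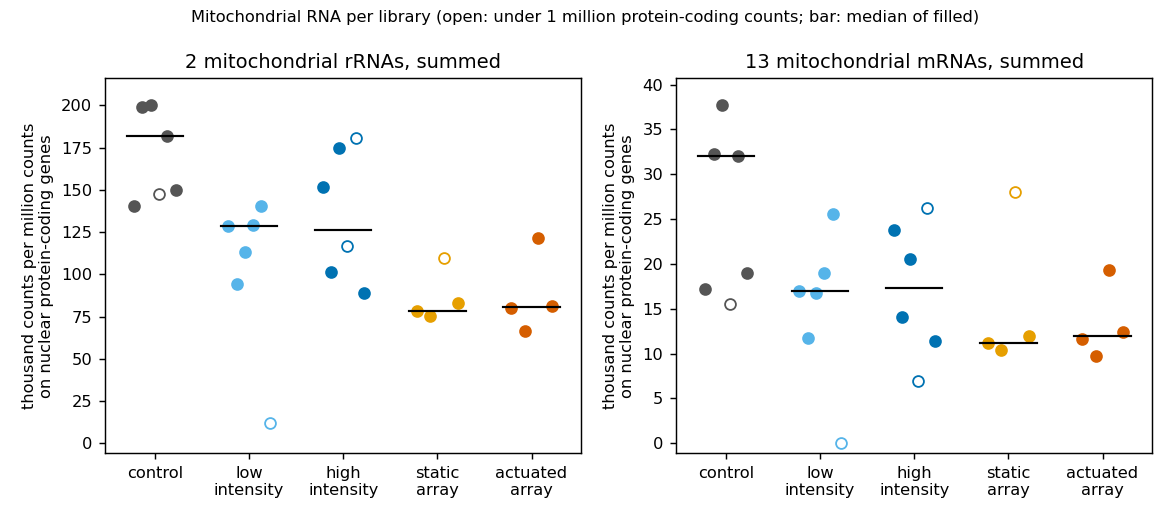
Summed counts of the 2 mitochondrial rRNAs (left) and the 13 mRNAs (right) per 1000000 nuclear protein-coding counts, 1 point per library in each of the 5 groups. Open points are the 5 libraries with under 1000000 nuclear protein-coding counts and bars are medians of the filled points; the filled static array points lie below all filled control points in both plots.

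Gene tests used edgeR on all 26 libraries and, beside that, on the 21 deeper ones. Of the 37 genes, 16 passed the filter on low counts: the 13 mRNAs, both rRNAs and mt-Tg. The other 21, all tRNAs, were not tested. With all libraries, edgeR called 0 of the 16 at an adjusted p under 0.05 in each of the 5 comparisons, and at an unadjusted p under 0.05 it gave 2 between static array and control, 1 between actuated and static array, 0 between high intensity and control, 1 between low intensity and control, and 1 between the intensities. In the same order, 5.27%, 3.86%, 7.04%, 5.23% and 2.91% of all genes tested had an unadjusted p under 0.05. Over all genes the share called was 0.0134% for static array against control, 0% for actuated against static array, 0.0402% for high intensity against control, 0.0268% for low intensity against control and 0% for high against low intensity. DESeq2 and limma voom with quality weights also called 0 of the 16 in each.

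The clearest difference was between the static array and the controls, and it was called when the 5 shallower libraries were left out. That set of libraries was chosen with earlier results of these data known. Only edgeR was run on it, so these calls were not checked with DESeq2 or limma. In the deeper libraries, 6 mitochondrial genes were lower on the static array and 0 were higher: both rRNAs, mt-Co1, mt-Cytb, mt-Nd4 and mt-Nd5. Over all genes, 0.713% were called in this comparison. The median log2 fold change of the 16 members was -0.99, against -0.003 over all 14730 genes tested. Of the 10 rRNA and mRNA genes with no near-complete copy, all 10 had negative values, and for 9 of them every static array library lay below every control. The exception was mt-Nd6. These genes come from shared precursors, so the 10 are not independent. Of all 16 members, 13 had negative values and 3 positive ones, among them mt-Nd3, whose level hardly changed when its copy was added. Over all genes tested, 3.87% had every static array library below every control.

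mt-Rnr2, the rRNA of the large ribosomal subunit, had 54580, 53180 and 56736 pcCPM on the static array and 98889, 132213, 139526, 128212 and 104951 in the controls. The groups did not overlap, and the log2 fold change was -1.14 (edgeR, SE 0.20 and adjusted p = 0.00486). mt-Rnr1, the rRNA of the small subunit, had 23538, 22308 and 26398 pcCPM on the static array. The controls had 41530, 66648, 60433, 53696 and 45080, again without overlap, and the log2 fold change was -1.15 (edgeR, SE 0.21 and adjusted p = 0.00906). Both rRNAs were thus lower by about the same amount.

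Of the complex IV and complex III subunits, mt-Co1 had 3481, 3313 and 3632 pcCPM on the static array, against 6173, 12446, 14380, 11461 and 6308 in the controls. The controls fell into a lower pair and 3 higher libraries, and all exceeded the static array. Its log2 fold change was -1.55 (edgeR, SE 0.29 and adjusted p = 0.00906). mt-Cytb had 1396, 1431 and 1520 pcCPM on the static array, against 2654, 4104, 5270, 4771 and 2885 in the controls. The same 3 control libraries were high, and the log2 fold change was -1.44 (edgeR, SE 0.29 and adjusted p = 0.0159).

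Of the complex I subunits, mt-Nd4 had 1119, 1072 and 1135 pcCPM on the static array, and 1891, 2388, 3293, 3487 and 1949 in the controls. Its log2 fold change was -1.23 (edgeR, SE 0.25 and adjusted p = 0.0193). mt-Nd5 had 2515, 2309 and 2984 pcCPM, and 3741, 7282, 8579, 7549 and 4281 in the controls, with a log2 fold change of -1.27 (edgeR, SE 0.30 and adjusted p = 0.0414). Neither gene overlapped between the groups. mt-Nd1 missed the threshold, with a log2 fold change of -0.97 (edgeR, SE 0.24 and adjusted p = 0.0561).

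The other genes with no near-complete copy also did not pass. mt-Nd1 had 943, 907 and 919 pcCPM on the static array and 1370, 1704, 2138, 2451 and 1396 in the controls. mt-Nd2, a further complex I subunit, had 694, 703 and 781 pcCPM against 902, 1589, 1683, 1466 and 1073, and a log2 fold change of -0.89 (edgeR, SE 0.25 and adjusted p = 0.104). mt-Atp8 had 124, 144 and 133 pcCPM against 169, 350, 445, 148 and 245, and a log2 fold change of -1.02 (edgeR, SE 0.36 and adjusted p = 0.201). For all 3 genes the static array lay below the controls, for mt-Atp8 by a narrow margin.

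The members with a copy behaved unevenly when counted alone. mt-Co3 gave a log2 fold change of 2.58 (edgeR, SE 1.24 and adjusted p = 0.392) on the static array and mt-Nd4l -0.71 (edgeR, SE 1.25 and adjusted p = 0.868). With the copies added, these became -0.44 (SE 0.17, adjusted p = 0.231) and -1.13 (SE 0.23, adjusted p = 0.0181), so that mt-Nd4l joined the called genes and 7 were lower.

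mt-Co2, a complex IV subunit, had a log2 fold change of -0.76 alone (edgeR, SE 1.40 and adjusted p = 0.875) and -0.96 with Gm28661 (edgeR, SE 0.25 and adjusted p = 0.0609). The pair summed to 642, 652 and 841 pcCPM on the deeper static array and 1071, 1445, 1624, 1657 and 1145 in the deeper controls, without overlap. mt-Atp6 gave -1.62 alone (edgeR, SE 1.07 and adjusted p = 0.572) and -1.10 with Gm10925 (edgeR, SE 0.31 and adjusted p = 0.104). Its pair summed to 1884, 2215 and 1382 pcCPM against 2437, 5706, 5530, 3487 and 2406, again without overlap. Neither passed the threshold in either form. mt-Nd3, a small complex I subunit, had 114, 108 and 134 pcCPM on the static array and 88.9, 61.3, 145, 97.2 and 94.9 in the controls. Its groups overlapped, and its log2 fold change was 0.29 (edgeR, SE 0.21 and adjusted p = 0.610).

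This difference depended on which libraries entered. Over all 26 libraries the same genes had log2 fold changes of -1.02 (mt-Rnr2), -0.97 (mt-Rnr1), -1.12 (mt-Co1), -1.02 (mt-Cytb), -0.94 (mt-Nd4) and -0.75 (mt-Nd5), none called by edgeR (adjusted p of 0.998 to 1). The static library then added, replicate 3, had 72638 pcCPM for mt-Rnr2 and 7657 for mt-Co1, the latter within the controls. Within the deeper libraries, leaving out static array replicate 1, 2 or 4 left 1 call, mt-Rnr2, which was called in each of the 21 fits with 1 library left out (adjusted p of 0.00247 to 0.0493). The deposited TPM did not separate the groups: mt-Rnr2 had 31124 to 41088 TPM on the deeper static array and 30028 to 69923 TPM in the controls. Over all libraries, limma on log2(TPM + 1) gave static array against control log2 differences of 0.046 for mt-Nd5, 0.28 for mt-Nd1 and 0.48 for mt-Nd2. The static array and the controls belong to different arms that differed in depth, so that array, arm and depth cannot be told apart.

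Sums of cell markers were also compared between these groups, and some lists separated them while others overlapped. The summed level of 5 astrocyte and glia markers (Gfap, Aqp4, Slc1a3, Olig2 and Sox10, all with counts in each group) was 3220 to 4140 pcCPM in the deeper static libraries and 2118 to 2864 in the deeper controls, without overlap. The summed level of 5 neuron markers was 2958 to 3355 and 3000 to 3559 pcCPM, which overlapped. The 7 motor neuron markers summed to 91.6 to 107 pcCPM on the static array and 132 to 200 in the controls, also without overlap. On the actuated array the motor neuron sum was 117 to 158 pcCPM, which overlapped the controls. The glia sum there was 2906 to 4577 pcCPM, which did not. Fibroblast and mesenchyme markers (Col1a1, Col1a2, Col3a1, Lum, Dcn, Pdgfra and Pdgfrb, all with counts in each group) summed to 290.2 to 1033 pcCPM on the static array and 407 to 1087 in the controls. The 6 skeletal muscle markers (Myod1, Myog, Des, Acta1, Myh3 and Ttn) summed to 9.48 to 134 pcCPM and 10.2 to 123, and of them Myod1 and Myog were at 0 in the controls. The part of these cell markers in the mitochondrial difference was not tested.

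**Figure D4:**
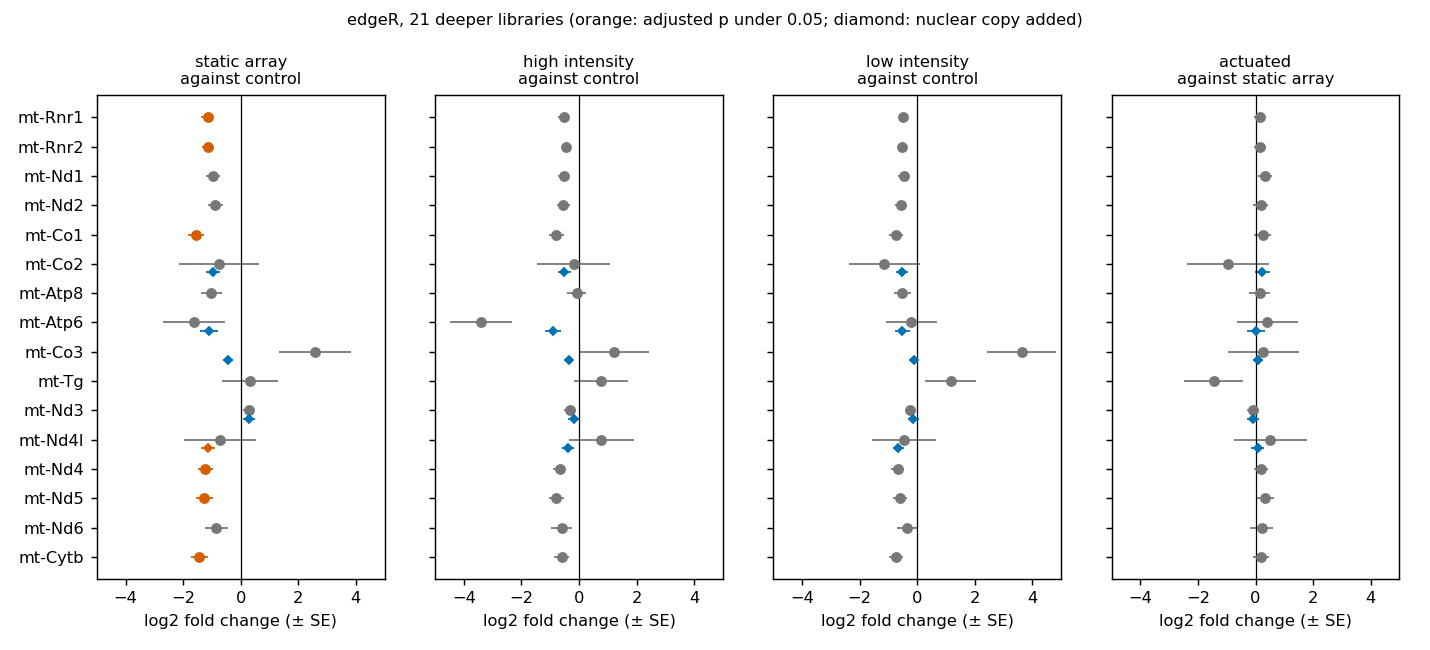
Log2 fold changes from edgeR in the 21 deeper libraries for the 16 tested mitochondrial genes (circles, bars are SE) in 4 comparisons, with orange for an adjusted p under 0.05. Diamonds are the fits with the nuclear copy added; 6 circles and 1 diamond are orange, all for the static array against control, and the wide bars of mt-Co2, mt-Atp6, mt-Co3 and mt-Nd4l shorten when the copy is added.

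The actuated and static arrays differed in whether the array was moved. No difference was called by edgeR, in either set of libraries, and 0% of all genes were called in each. In the deeper libraries mt-Rnr2 had 55593, 46697, 83740 and 57177 pcCPM on the actuated array, and mt-Co1 had 3932, 3165, 5571 and 3776. Actuated array replicate 3 was the highest of the deeper array libraries for both, and replicate 2 the lowest. The deeper static values given above lay between these. The 10 genes with no near-complete copy had log2 fold changes of 0.14 to 0.34 (SE 0.20 to 0.41), and 0 had an unadjusted p under 0.05 in the deeper libraries, against 0.38% of all genes tested.

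Among them, the library with the lowest value of all 21 was actuated array replicate 2 for 9 of the 10 genes, and low intensity replicate 2 for the remaining one, mt-Nd6. The library with the highest value was control replicate 3 for 6, control replicate 2 for 2 and control replicate 5 for 2. mt-Tg, the tested tRNA, had a log2 fold change of -1.45 (edgeR, SE 1.01 and adjusted p = 1) between actuated and static array, and its level rested on the 231 counts of static array replicate 2.

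High and low intensity were each compared with the same controls, which also served the static array comparison, and the 3 comparisons are not independent. For high intensity, edgeR called in the deeper libraries 0 of the 16 mitochondrial genes and 0.462% of all genes. An unadjusted p under 0.05 was reached by 9 of the 16, against 15.9% of all genes tested. The median log2 fold change of the members was -0.53, against 0.003 over all genes. Among the 10 genes with no near-complete copy, all had negative values, and for 0 of the 10 did every high-intensity library lie below every control, against 1.17% of all genes tested.

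At high intensity mt-Co1 had 8215, 4778, 7573 and 3950 pcCPM. Of these, 4778 and 3950 lay below every deeper control, and 7573 and 8215 lay within the controls. Its log2 fold change was -0.78 (edgeR, SE 0.25 and adjusted p = 0.126). The values for mt-Nd4 were -0.68 (edgeR, SE 0.22 and adjusted p = 0.133) and for mt-Rnr2 -0.47 (edgeR, SE 0.17 and adjusted p = 0.181). The summed level of the 7 fibroblast and mesenchyme markers was 1036 to 2983 pcCPM in these libraries and 407 to 1087 in the controls. The 6 skeletal muscle markers, all with counts at high intensity, summed to 28.1 to 231 pcCPM (median 206), against 10.2 to 123 (median 32.3) in the controls. The motor neuron markers summed to 96.2 to 160 pcCPM (median 125), against 132 to 200 (median 152), and the neuron markers to 2375 to 3467, against 3000 to 3559. The part of these cell markers in the high-intensity values was not tested.

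mt-Atp6, a membrane subunit of ATP synthase, had the largest change at high intensity when counted alone. Its level was 172, 0, 41.8 and 0 pcCPM in the deeper high-intensity libraries, and 52, 1217, 1174, 55.8 and 288 in the controls. The log2 fold change was -3.41 (edgeR, SE 1.07 and adjusted p = 0.119). With the copy Gm10925 added it was -0.89 (edgeR, SE 0.28 and adjusted p = 0.120). In that fit the 10 genes with no near-complete copy had -0.78 to -0.07 (median -0.57), so mt-Atp6 still lay below all of them.

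No mitochondrial gene was called at low intensity either. In the deeper libraries edgeR called 0 of the 16 members and 0.597% of all genes, and 9 of the 16 had an unadjusted p under 0.05, against 15.2% of all genes tested. The members' median log2 fold change was -0.50, against -0.008 over all genes. mt-Rnr2 had 89053, 64158, 76454, 87337 and 96639 pcCPM, all below the lowest control of 98889, and was the only 1 of the 10 genes whose groups did not overlap, against 1.07% of all genes tested with every low-intensity library below every control. Its log2 fold change was -0.54 (edgeR, SE 0.16 and adjusted p = 0.102). mt-Nd4 gave -0.69 (edgeR, SE 0.21 and adjusted p = 0.111) and mt-Co1 -0.73 (edgeR, SE 0.24 and adjusted p = 0.128).

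The same 5 marker lists were summed at low intensity. The motor neuron markers summed to 86.5 to 143 pcCPM in the deeper low-intensity libraries, against 132 to 200 in the controls, and the neuron markers to 2583 to 3480. The glia markers summed to 2070 to 4081 pcCPM, against 2118 to 2864 in the controls. The fibroblast and mesenchyme markers had a median of 875 pcCPM (324 to 3062), against 508, and the skeletal muscle markers, all with counts, a median of 66.6 (11.6 to 198), against 32.3. The ranges of all 5 lists overlapped those of the controls, and their part in the low-intensity values was not tested.

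mt-Co3, a complex IV subunit, showed the opposite direction at low intensity when counted alone. Its level was 670, 0, 143, 609 and 233 pcCPM in the deeper low-intensity libraries, and 29.4, 0, 63.9, 0 and 37.8 in the controls. The log2 fold change was 3.62 in the deeper libraries (edgeR, SE 1.18 and adjusted p = 0.131) and 3.62 in all libraries (edgeR, SE 1.15 and adjusted p = 0.418). Adding Gm28437 gave -0.13 (edgeR, SE 0.14 and adjusted p = 0.724) and -0.25 (edgeR, SE 0.44 and adjusted p = 1). The pair's sum was 772 to 1046 pcCPM at low intensity and 828 to 1070 in the controls, which overlapped nearly in full.

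Between high and low intensity, edgeR called 0 of the 16 members in either set of libraries, and 0% of all genes. In the deeper libraries 1 member had an unadjusted p under 0.05, mt-Atp6 (log2 fold change -3.21, edgeR SE 1.07 and adjusted p = 0.469), against 7.68% of all genes tested. With the copy added its value was -0.37 (edgeR, SE 0.28 and adjusted p = 0.801). The 10 genes without a near-complete copy had log2 fold changes of -0.25 to 0.43 (SE 0.17 to 0.37), of which 5 were positive.

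Within the mitochondrial mRNAs, each gene held a share of the counts. Taking the 8 mRNAs with no near-complete copy as the whole, mt-Co1 held 29.9% to 40.9% of their counts in the deeper libraries, mt-Nd5 21.5% to 27.6%, mt-Cytb 12.3% to 16.3% and mt-Nd1 5.6% to 9.77%. The static array had 32.1% to 33.4% for mt-Co1, below the 34.3% to 40.9% of the controls. It had 8.13% to 9.04% for mt-Nd1, above the 5.6% to 8.04% of the controls, and 6.65% to 6.98% for mt-Nd2, above their 4.63% to 5.83%. The remaining mRNAs overlapped between these groups. Over all libraries the shares of mt-Co1 overlapped too, at 27.6% to 33.4% on the static array and 32.2% to 40.9% in the controls. The actuated array also lay above the controls for mt-Nd1 (8.68% to 9.77%) and mt-Nd2 (5.88% to 7.2%), but overlapped them for mt-Co1 (29.9% to 35.4%). No test was made of these shares, which are parts of the same whole and so are not independent.

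mt-Nd6 differs from the other mRNAs in its position, because it is the only one encoded on the reverse strand, together with 8 of the tRNAs. Its last 14 bases lie opposite the last 14 of mt-Nd5, and are shown in capitals in both, at chrM:13506-13565 on the forward strand for mt-Nd5 and chrM:13552-13611 on the reverse strand for mt-Nd6.
mt-Nd5: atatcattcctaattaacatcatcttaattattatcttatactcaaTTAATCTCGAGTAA
mt-Nd6: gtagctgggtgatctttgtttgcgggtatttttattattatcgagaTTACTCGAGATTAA

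In the 21 deeper libraries mt-Nd6 made up 0.813% to 1.86% of the mitochondrial mRNA counts, and its TPM was 20.3% to 44.4% of that of mt-Nd5. Static array replicate 3 stood apart, with 9.8% of the mRNA counts and an mt-Nd6 TPM of 213% of mt-Nd5. High intensity replicate 4 had 8.11% and 264%, and high intensity replicate 5 had 3.85% and 78.8%. All 3 had under 1000000 nuclear protein-coding counts. Control replicate 4, the other shallow library with mitochondrial mRNA counts, had 1.7%, within the range of the deeper ones.

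The fold changes of mt-Nd6 differed with and without the shallower libraries. On the static array it had 164, 192 and 203 pcCPM in the deeper libraries and 2743 in replicate 3, against 156, 117, 359 and 228 on the actuated array. The log2 fold change of actuated against static array was -1.69 with all libraries (edgeR, SE 0.67 and adjusted p = 0.757) and 0.21 in the deeper ones (edgeR, SE 0.41 and adjusted p = 1). Against control, the static array gave 1.14 with all libraries (edgeR, SE 0.59 and adjusted p = 0.982) and -0.85 in the deeper ones (edgeR, SE 0.40 and adjusted p = 0.390). Static array replicate 3 also had counts on 31731 genes, the most of all 26 libraries, at a total of 613344. Whether the counting used the strand is not given in the sources used here, and the part of reads from the opposite strand was not tested.

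**Figure D5:**
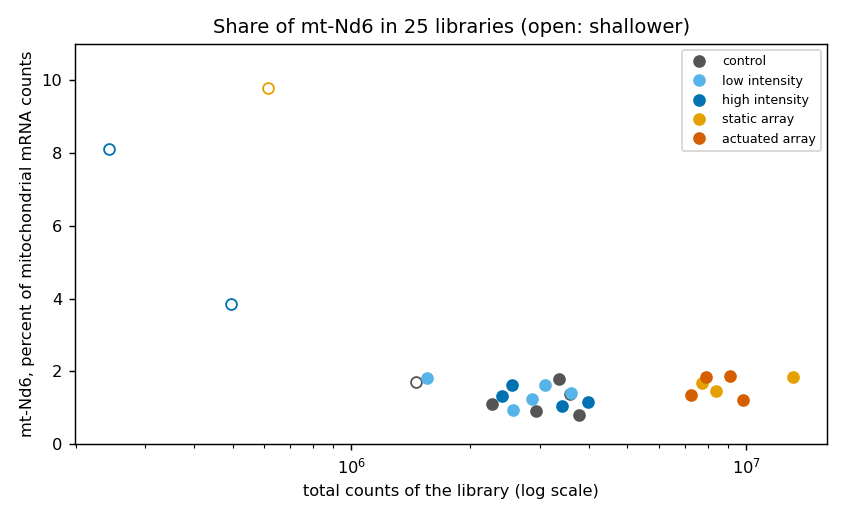
Counts on mt-Nd6 as percent of all mitochondrial mRNA counts (linear axis) against the total counts of the library (log axis) in the 25 libraries with mitochondrial mRNA counts, coloured by group, with open points for the shallower ones. The deeper libraries lie between 0.813% and 1.86%, and 3 shallower libraries lie at 3.85%, 8.11% and 9.8%.

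mt-Rnr2 had 1.98 to 2.54 times the counts of mt-Rnr1 in the deeper libraries. Of the shallower libraries, high intensity replicate 4 had 0.853 times and static array replicate 3 had 1.96 times, while the other three lay within the range of the deeper ones. High intensity replicate 4 had 63022 pcCPM for mt-Rnr1 and 53768 for mt-Rnr2, and only 180 for mt-Cytb.

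The nuclear genes that serve the mitochondrial genome were examined in 5 lists. On the deeper static array, 1 of the 79 tested nuclear subunits of complexes I, III, IV and V was higher than in control and 0 were lower, beside the 0.713% called over all genes. It was Atp5o, a stalk subunit of ATP synthase (log2 fold change 0.56, edgeR SE 0.12 and adjusted p = 0.0216). The median of this list was 0.14 with 58 of 79 positive, against -0.003 over all genes and -0.99 for the mitochondrial members. Over all 26 libraries the same comparison gave a list median of 0.057 with 42 of 78 positive, below the 0.091 over all genes. In the deeper libraries the list median was -0.13 at high intensity (23 of 79 positive), against 0.003 over all genes. At low intensity it was -0.04 (29 of 79 positive), against -0.008. With all 26 libraries, 0 genes of the 5 lists were called by edgeR in any of the 5 comparisons.

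Of the other lists, 0 of 21 genes of mitochondrial transcription and DNA maintenance, 0 of 30 of RNA processing and stability, 0 of 31 of translation and 0 of 14 regulators of biogenesis were called between static array and control. An unadjusted p under 0.05 was reached by 3, 1, 3 and 1 of them, against 12.6% of all genes tested. Their medians were 0.01, -0.13, -0.17 and 0.13. At high and at low intensity, 0 genes of the 5 lists were called in the deeper libraries. The smallest adjusted p there was that of Gabpa, a subunit of the transcription factor NRF2 that acts on nuclear genes of respiration, at low intensity (log2 fold change 0.60, edgeR SE 0.16 and adjusted p = 0.0611). Between actuated and static array 0 genes of the lists were called, and 1 had an unadjusted p under 0.05, against 0.38% of all genes tested.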

How the data were processed

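Total RNA was made into libraries with a low-input kit that cleaves rRNA-derived fragments after the first amplification (5 cycles, then 15), and was read as pairs of 50 bases, per the labels' protocols. The submitters' processing notes name BWA 0.7.12-r1039, bedtools 2.25.0, STAR and Salmon, with no role. The authors deposited estimated counts, written as whole numbers and not scaled for depth, and TPM, which sums to 1000000 per library. Which annotation and strand setting made them is not given in the sources used here. Biotypes were taken from the count table, and they set pcCPM, the deeper set and the nuclear rRNA share. The biotype entries of the 2 deposited tables differed for 42543 of the 56941 genes. Those of the TPM table were not used. No molecular identifiers are mentioned, so limits cover counting error only.

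Counts were fitted with edgeR 4.0.16 (R 4.3.3): filterByExpr, TMM, the quasi-likelihood F-test, 1 coefficient per group, and Benjamini-Hochberg adjustment over all 14907 genes (14730 in the deeper libraries). The replicate numbers did not pair the samples. Alternatives were DESeq2 1.42.0 and limma 3.58.1 (voom, log2(TPM + 1), log2(TPM + 0.1)), both over all 26 libraries only. Further alternatives with edgeR were other scalings and filters, only the groups compared, and leaving out each library. Adding nuclear copies sharing over 90% of 50-base windows was chosen after seeing the data. The members, the lists and the deeper set (over 1000000 protein-coding counts) were chosen with earlier results of these data known. The genes chosen to be named were the 13 mRNAs, 2 rRNAs, the tRNAs of highest level and any called member, not all with every value. Of the nuclear lists, the called gene and that of smallest adjusted p at high and low intensity are named. The fits were tested on simulated data. Sequences came from GENCODE M21 (GRCm38) transcripts.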

Additional observations from a re-analysis of the deposited data

Results flagged for a closer look

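Of 65 checks of a group for a library far from the others, 14 found one. The checks were not independent, because sums were checked beside their own genes in the same libraries. The count therefore cannot be set against a rate expected by chance. Static array replicate 3 accounted for 7 of the 14. Its summed mitochondrial mRNA was 27996 pcCPM against 10396 to 11983 in the other static libraries, and mt-Nd6 made up 9.8% of the mitochondrial mRNA counts against 1.46% to 1.85%. It was also high for mt-Co1 (7657 pcCPM), mt-Cytb (3318), mt-Nd4 (2048), mt-Nd5 (7071) and mt-Nd6 (2743).

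Low intensity replicate 6, with 1536 counts in all, was low for the summed rRNA (12163 pcCPM against 94266 to 140277), mt-Rnr1 (3475) and mt-Rnr2 (8688). The ratio of mt-Rnr2 to mt-Rnr1 counts was 0.853 in high intensity replicate 4 against 2.26 to 2.54 in the other high-intensity libraries, and 1.98 in control replicate 2 against 2.31 to 2.39. mt-Co3 had 245 pcCPM in high intensity replicate 6 and 0 in the other high-intensity libraries. mt-Atp6 had 846 pcCPM in high intensity replicate 5, against 0 to 172.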

How the results depend on the processing

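The calls differed with the low-count filter, the groups fitted and the libraries used. Without a filter on low counts, edgeR called 1 member in each of the 5 comparisons (mt-Nd6 between actuated and static array, mt-Atp6 at high intensity, and mt-Co3 in the other three). Fitting only the groups compared gave 1 call at low intensity, mt-Co3. All calls of mt-Co3 and mt-Atp6 in this paragraph counted the gene without its nuclear copy. The share of all genes called was 0.713% for the static array against control in the deeper libraries. For the alternative settings that share is not given here, so their calls cannot be set against it. For the static array against control, the deeper libraries gave 6 calls, 6 with nuclear protein-coding scaling and 7 with the copies added. Leaving out single libraries gave 0 to 1 calls there over all libraries (mt-Rnr1, without low intensity replicate 6) and 1 to 7 in the deeper ones, and 0 to 1 between high and low intensity (mt-Co3, without high intensity replicate 6). The replicate block gave 0 calls in each comparison over all libraries and 7 for the static array in the deeper ones, where it added mt-Nd1. Same-numbered libraries correlated at -0.225 to 0.182, and the numbers did not pair them.

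As ratios of medians of summed TPM on the log2 scale, the static array differed from control by -0.32 for mRNA and -0.42 for rRNA, and low intensity by 0.19 for mRNA. The tRNA sum between actuated and static array was -0.31 in the deeper libraries and -1.78 to -0.31 when single libraries were left out.

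Some log2 fold changes reversed. On log2(TPM + 1) and log2(TPM + 0.1), the static array gave 0.046 and 0.046 for mt-Nd5, 0.28 and 0.28 for mt-Nd1, 0.48 and 0.48 for mt-Nd2 and 0.49 and 0.77 for mt-Nd4l, 1.61 and 2.43 for mt-Co2 and 1.42 and 1.98 for mt-Atp6. High intensity gave 0.012 and 0.012 for mt-Co1 and 0.12 and 0.12 for mt-Rnr2, and low intensity -0.78 and -1.32 for mt-Co3. With copies added, mt-Co3 was -0.30 (all) and -0.44 (deeper) on the static array, and -0.25 and -0.13 at low intensity. limma voom gave 2.55 for mt-Co2, 0.81 for mt-Nd4l and -0.32 for mt-Nd6 on the static array. Leaving out single libraries moved mt-Nd4l from -1.34 to 0.13 over all libraries and from -1.14 to 0.22 in the deeper ones. It moved mt-Co2 from -1.30 to 0.33 and from -1.09 to 0.43, with both positive values obtained without control replicate 2. For mt-Nd6 on the static array against control, the deeper libraries gave -0.85, -0.87 with nuclear scaling, -0.86 with the block and -0.85 with copies added. Single libraries left out gave -0.75 to 1.48 over all and -1.05 to -0.54 in the deeper ones. Between actuated and static array, mt-Nd6 was 0.21, 0.21, 0.047 and 0.21 under the same 4 settings. Single libraries left out gave -2.07 to 0.21 over all and -0.14 to 0.41 in the deeper ones. The cause of these changes was not tested.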
